A study of Mus musculus with 18 samples.

Results

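In mouse CD4 T cells, 125 of 60558 merged regions of H3K79me2 peaks were compact domains that span several short genes lying close together. The mark need not be unbroken over a domain. A single peak of at least 1 list held at least 3 whole genes in 95 of them. The peaks of all 9 H3K79me2 lists on chromosomes 1 to 19 and X were merged into union regions, and a region was kept where it was under 100 kb wide and contained at least 3 whole protein-coding genes of the RefSeq annotation. The 125 domains held 460 of 21631 genes. The domains were chosen by the positions of peaks in any list, pooled over the cell types, so their extent is not a finding. A list that covers more also sets more of the ends, and the same holds for every union region used as background. A domain is named here by its first and last gene in chromosome order.

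H3K79me2 is dimethylation of lysine 79 of histone H3, a mark that only the methyltransferase DOT1L sets. In mammalian cells it covers the bodies of transcribed genes, strongest just downstream of the start and fading along long genes. Naive CD4 T cells are resting cells that have not met antigen, whereas Th1 and Th2 cells are activated helper cells that make interferon gamma or interleukins 4 and 13.

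The study compared H3K79me2 by chromatin immunoprecipitation and sequencing in 3 Th2, 3 Th1 and 3 naive libraries, all from CD4+ T cells labelled WT. Th2 cells were cultured for 4 days on plates coated with anti-CD28 and anti-CD3, in IL-4, IL-2 and anti-IFNg, and sorted for IL-4 or IL-13 from 4C13R mice (IL-4 AmCyan / IL-13 dsRed reporter). Th1 cells had the same culture time and stimulation with IL-12, anti-IL-4 and IL-2, and were sorted for YFP from IFNg-YFP reporter mice. Naive cells were sorted straight from WT mice as CD44- CD62L+ cells without culture, and all cells were fixed in 0.6% formaldehyde. Polarised and naive cells thus differed in culture, in mouse strain and in cell type at once, and these cannot be told apart. Th2 and Th1 cells likewise differed in mouse strain, reporter sort and cytokines as well as in cell type, which cannot be told apart either. No label ties the 3 libraries of a group to different mice, so a p-value speaks of the spread among libraries alone, and that spread may be technical.

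Read depth is unknown, because the deposited files are peak lists. Peaks covered 232.2 to 249.9 Mb in the Th2 lists, 217.0 to 240.1 Mb in the Th1 lists and 275.6 to 284.9 Mb in the naive lists, so that naive lists covered more sequence genome-wide. All 8 T lineage markers were at least 50% covered in each cell type. Ifng averaged 2.77% covered in Th2, 100% in Th1 and 0% in naive lists, and Il4 100%, 23.0% and 0%. Tbx21, the Th1 regulator, was covered in both helper types (99.91% in Th2 and 100% in Th1) and in no naive list. Among markers of other cells, Cd8a and Cd8b1 averaged 7.28% and 23.3% covered in Th2 lists, 0% and 9.01% in Th1 lists and 100% each in naive lists. Summed B cell marker coverage was 100, 100 and 154 points in Th2, Th1 and naive lists over 6 genes, with Ms4a1, Pax5 and Blk at 0 in all groups. Summed myeloid coverage over 5 genes was 93.0, 45 and 100 points in Th2, Th1 and naive lists, with Lyz2, Csf1r, Cd14 and Adgre1 at 0. Summed NK coverage over 3 genes was 2.60, 101 and 26.9 points in Th2, Th1 and naive lists, with Ncr1 at 0. The part of these cells or genes in the results below was not tested.

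The promoters of 5 genes are shown here, because they are the genes with the largest called rise or fall in a comparison. Each sequence runs from 250 bases before to 50 bases after the start in the RefSeq table of GRCm38.p6, the assembly of mm10, 5′ to 3′ on the gene's strand, with CpG dinucleotides in capitals. They lie at chr11:69880936-69881235 on the minus strand (Kctd11), chr17:24696107-24696406 on the minus strand (Gfer), chr3:89245848-89246147 on the minus strand (Trim46), chr17:34144999-34145298 on the plus strand (H2-DMb2) and chr19:6079788-6080087 on the plus strand (Tmem262). For Trim46, H2-DMb2 and Tmem262 the start used by that table lies inside the annotated gene body. The whole Trim46 window lies within the annotated body of Trim46.

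Kctd11: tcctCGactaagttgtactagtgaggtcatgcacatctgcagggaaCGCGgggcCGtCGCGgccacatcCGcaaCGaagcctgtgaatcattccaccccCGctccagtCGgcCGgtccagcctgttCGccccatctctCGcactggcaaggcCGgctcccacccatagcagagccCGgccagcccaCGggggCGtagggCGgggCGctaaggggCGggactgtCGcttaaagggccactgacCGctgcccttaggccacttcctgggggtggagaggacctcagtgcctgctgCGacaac
Gfer: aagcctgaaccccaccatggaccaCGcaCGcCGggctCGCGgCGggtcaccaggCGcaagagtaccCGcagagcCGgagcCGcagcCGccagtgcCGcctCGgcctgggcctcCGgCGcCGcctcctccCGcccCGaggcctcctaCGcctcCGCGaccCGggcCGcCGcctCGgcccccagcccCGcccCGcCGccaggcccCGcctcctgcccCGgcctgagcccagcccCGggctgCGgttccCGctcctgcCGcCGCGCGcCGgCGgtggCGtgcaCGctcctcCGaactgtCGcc
Trim46: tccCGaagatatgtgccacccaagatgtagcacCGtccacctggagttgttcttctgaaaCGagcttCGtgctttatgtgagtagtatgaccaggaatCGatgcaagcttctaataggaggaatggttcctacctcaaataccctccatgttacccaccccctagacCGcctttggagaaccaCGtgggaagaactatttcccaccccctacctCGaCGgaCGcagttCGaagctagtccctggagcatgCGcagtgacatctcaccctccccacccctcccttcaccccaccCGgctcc
H2-DMb2: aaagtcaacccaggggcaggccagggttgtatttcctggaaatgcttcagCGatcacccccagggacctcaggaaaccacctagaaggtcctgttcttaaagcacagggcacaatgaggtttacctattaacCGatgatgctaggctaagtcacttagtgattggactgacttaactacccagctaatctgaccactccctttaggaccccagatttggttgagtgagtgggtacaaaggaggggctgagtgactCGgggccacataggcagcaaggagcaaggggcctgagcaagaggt
Tmem262: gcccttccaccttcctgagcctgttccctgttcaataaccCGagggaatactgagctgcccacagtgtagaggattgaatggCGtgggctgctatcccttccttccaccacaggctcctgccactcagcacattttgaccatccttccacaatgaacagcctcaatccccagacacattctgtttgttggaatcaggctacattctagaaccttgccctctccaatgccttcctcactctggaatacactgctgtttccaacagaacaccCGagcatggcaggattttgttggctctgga

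The Gfer window held 43 CpG dinucleotides and the Kctd11 window 23, against 13 for Trim46 and 3 each for H2-DMb2 and Tmem262. Peaks covered the whole Gfer window in all 3 Th2 and all 3 Th1 lists and none of it in the naive lists. The Kctd11 window was fully covered in Th2 lists 1 and 3 and in all 3 Th1 lists, and at 0% in Th2 list 2 and in all naive lists. The Tmem262 window showed the opposite, with 0% in every Th2 and Th1 list and 100% in every naive list. The H2-DMb2 window was fully covered in all Th2 and Th1 lists and in no naive list, although the rest of that gene differed between Th2 and Th1 lists. The Trim46 window was fully covered in all Th2 and Th1 lists and in naive list 3, and at 0% in naive lists 1 and 2, so it did not separate Th2 from Th1 lists.

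The domains were 11.2 to 92.9 kb wide, with a median of 41.0 kb. In 78 of them there were 3 genes, in 27 there were 4 and in 20 there were 5 to 9. The domains with the most genes were Daxx-Vps52 and Syvn1-Cdca5, with 9 each. Daxx-Vps52 lies in the major histocompatibility region and holds Daxx, a histone chaperone, Tapbp, which helps load peptides on class I molecules, and the ribosomal protein gene Rps18. Syvn1-Cdca5 holds Syvn1, a ubiquitin ligase of the endoplasmic reticulum, and Fau, which encodes a ribosomal protein fused to a ubiquitin-like protein. Tmem115-Hyal2 and Wdr74-Taf6l held 7 genes each, and 6 domains held 6 (Fitm1-Irf9, Gpsm3-Egfl8, Mapk3-Aldoa, Slc25a11-Camta2, Surf6-Surf4 and Zbtb7b-Pygo2). The narrowest domains were Clpp-Pspn at 11.2 kb, Cyc1-Maf1 at 13.6 kb and Scnm1-Tnfaip8l2 at 16.3 kb.

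Just inside the width limit lay Cish-6430571L13Rik at 91.7 kb and Cdk4-Os9 at 92.9 kb. Just outside it lay a region with Taco1, Map3k3, Limd2 and Gm10840 at 103.2 kb and a region with Kctd20, Stk38 and Srsf3 at 104.4 kb. In all, 23 regions of 100 kb or more held at least 3 whole genes. A further 255 regions under 100 kb held exactly 2 whole genes and 1495 held exactly 1. Of the 460 member genes, 177 overlap another gene, and only 83 domains hold 3 genes that do not overlap one another. Peaks carry no strand, so coverage of a gene that overlaps another cannot be assigned to either of them.

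The domains lay on 18 chromosomes, with 19 on chromosome 11, 14 on chromosome 17 and 12 on chromosome 7, and none on chromosomes 18 and X. Member genes made up 6.38% of the genes of chromosome 19, 5.67% of chromosome 17 and 4.29% of chromosome 11, beside 2.13% of all genes. Member genes were short, with a median of 5.84 kb against 19.7 kb for other marked genes and 17.3 kb for all genes. Neighbours lay a median of 311 bp apart, beside 7252.5 bp for all adjacent pairs with a span under 100 kb. Short genes and narrow gaps are in part fixed by the width limit and are given as a description.

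By gene family, the domains held 8 of 97 cytosolic ribosomal protein genes (among them Rpl7a and Rps18) and 10 of 78 mitochondrial ribosomal protein genes. They held 6 of 51 proteasome genes, namely Psmb8, Psmb9 and Psmb10, subunits of the immunoproteasome, Psme1 and Psme2, its activator, and Psmb3, a subunit of the constitutive core. They held 3 of 13 RNA polymerase II subunit genes and only 4 of 397 Zfp genes. Of the 8 cytosolic ribosomal protein genes, 6 were fully covered in all 9 lists and could not be tested, and neither of the others was called in any comparison. Of the 6 proteasome genes 3 could not be tested for the same reason, and none of the other 3 was called. Of the 10 mitochondrial ribosomal protein genes 5 could not be tested, and 1 was called lower in each comparison with naive cells.

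Promoters in the RefSeq table matched 397 of the 460 member genes. The median ratio of observed to expected CpG was 0.771 in members, 0.797 in other marked genes and 0.586 in all genes. Exact letters were searched on both strands of the 300-base windows, and matches to different motifs could overlap. CCGGAAG, the core bound by ETS factors, was in 27.0% of member promoters, 20.7% of those of other marked genes and 12.1% of all promoters. GGGCGG, bound by SP factors, was in 64.2% of member promoters, 66.3% of other marked and 46.9% of all promoters. TATAAA was in 4.03%, 7.0% and 13.4%, and CCAAT, bound by NF-Y, in 40.3%, 39.8% and 39.6%, of the same sets. AAGATGGCG, bound by YY1, was in 4.03% of member promoters, 3.84% of those of other marked genes and 1.92% of all, and the palindromic NRF1 motif in 2.02%, 2.48% and 1.35%. Among the printed windows, GGGCGG was found in Kctd11 and Gfer, CCAAT in Tmem262 and H2-DMb2, and no searched motif in Trim46.

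Within the domains the mark was broken into more pieces in Th2 and Th1 cells than in naive cells. The mean number of separate peaks per domain was 4.14, 4.21 and 3.68 in the 3 Th2 lists, 3.61, 4.26 and 3.94 in the 3 Th1 lists and 2.30, 2.60 and 2.38 in the 3 naive lists. Every Th2 and Th1 list had more pieces per domain than every naive list, while Th2 and Th1 lists overlapped. A single peak carried all of the mark in 14, 15 and 18 of the 125 domains in the Th2 lists, 18, 10 and 13 in the Th1 lists and 46, 42 and 44 in the naive lists. The median domain was 80.1%, 82.6% and 83.9% covered in the Th2 lists, 84.0%, 79.5% and 80.1% in the Th1 lists and 94.3%, 93.2% and 94.1% in the naive lists. Genome-wide the lists differed the same way, with 45894 to 51854 peaks of a median width of 1018 to 1197 bp in Th2, 41504 to 46085 peaks of 1115 to 1285 bp in Th1 and 38026 to 40455 peaks of 1493 to 1721 bp in naive lists. No test was run over these domain sums, and the part of the wider naive peaks in the difference was not tested.

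**Figure D1:**
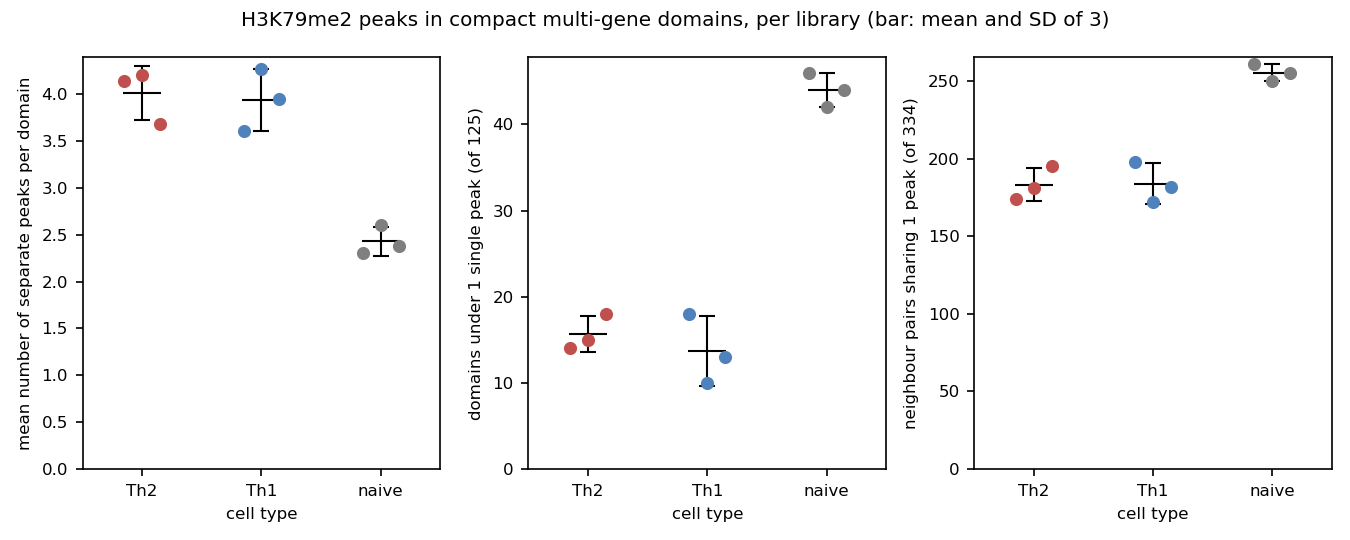
Mean number of separate peaks per domain, domains under 1 single peak and neighbour pairs under 1 shared peak (y axes) in each Th2, Th1 and naive library (points; bars are the mean and SD of 3 libraries). Naive libraries lie between 2.30 and 2.60 peaks per domain, below all 6 Th2 and Th1 libraries.

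A peak that held at least 3 whole genes at once was found in 27 domains in at least 2 of 3 Th2 lists, in 31 in Th1 lists and in 57 in naive lists. Such a peak was present in at least 1 list for 95 domains and in all 9 lists for 14. The remaining domains exist only because peaks of different lists were joined. No domain was fully covered in all 9 lists, since the list that reached farthest set its ends. The share of a domain covered in all 9 lists at once had a median of 66.1%. It was highest in Surf6-Surf4, the classical housekeeping surfeit cluster, Dedd2-Gsk3a and Bcl2l12-Scaf1 (90.4% each), and lowest in Gfer-Tbl3 (15.4%) and Muc1-Krtcap2 (21.4%). The strongest peak of a domain, by the authors' fold enrichment within its own list, had a median percentile of 93.7 to 96.8 over the 9 lists. This is the highest of all peaks that touch a domain. No like value for other wide regions is given here, so it does not set the domains apart.

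**Figure D2:**
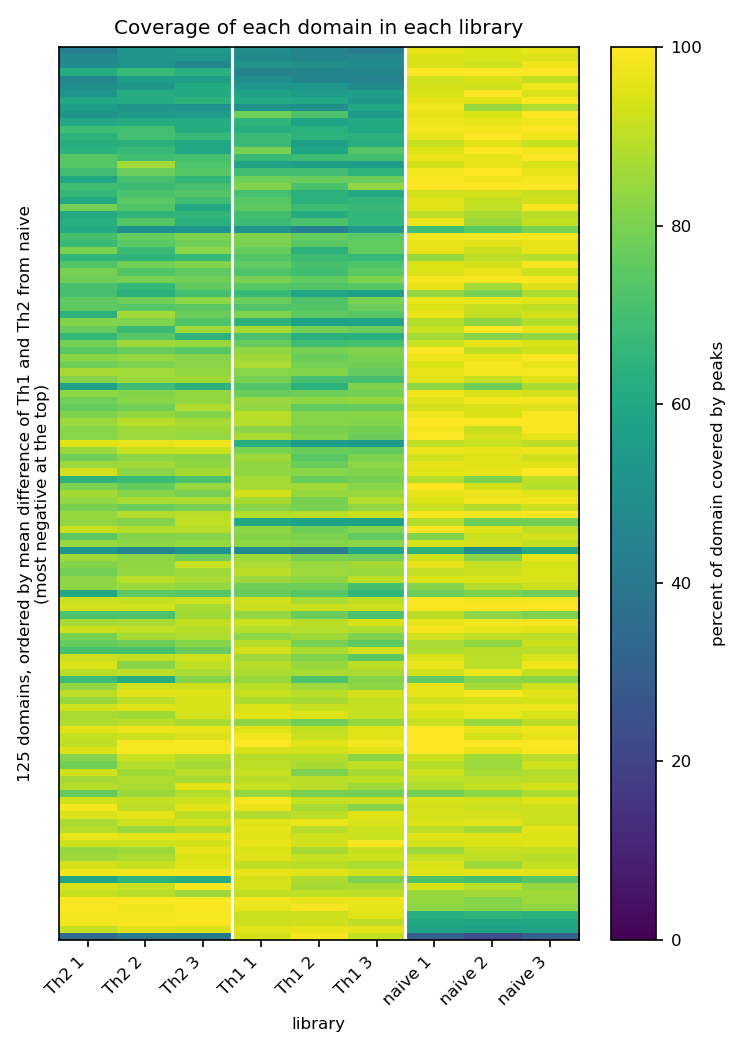
Percent of each of 125 domains (rows) covered by peaks in each Th2, Th1 and naive library (columns; colour scale from 0 to 100%). Naive libraries are the more covered ones in most rows, and the last rows hold domains such as Muc1-Krtcap2, Cish-6430571L13Rik and Tbc1d10a-Osm with less cover in naive libraries.

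Coverage of each domain was compared between cell types with limma in 1 fit over all 60558 union regions, and a call needed a difference of 25 percentage points or more with an adjusted p (Benjamini-Hochberg) below 0.05. Between Th2 and naive cells, 3 of the 125 domains were called higher and 18 lower, beside 6.92% and 15.8% of all regions. Between Th1 and naive cells, 4 were called higher and 21 lower, beside 4.88% and 17.2% of all regions. Between Th2 and Th1 cells, 2 were called higher and 2 lower, beside 3.93% and 1.94%. Both comparisons with naive cells used the same naive libraries. All domains are wider than 10 kb, and among the 8298 union regions of at least 10 kb, 10.1% were called higher and 31.7% lower for Th2 minus naive, 9.10% and 34.5% for Th1 minus naive, and 7.53% and 4.09% for Th2 minus Th1. The shares of called domains were thus lower than among wide regions in each comparison and direction. With a smallest difference of 10 points, 5 of the 125 domains were higher and 63 lower for Th2 minus naive, beside 7.52% and 19.03% of all regions, and 7 were higher and 65 lower for Th1 minus naive, beside 5.43% and 20.2%. With covered length matched between lists, 4 domains were higher and 22 lower for Th2 minus naive, beside 10.8% and 8.36% of all regions, and 5 higher and 20 lower for Th1 minus naive, beside 12.6% and 8.33%. With each library centred to the same mean, Th2 minus naive gave 3 higher and 14 lower domains, beside 9.57% and 13.73% of all regions. Th1 minus naive then gave 7 higher and 9 lower domains, beside 8.10% and 12.4%. Th2 minus Th1 gave 1 higher and 3 lower, beside 3.39% and 3.14%.

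In a domain with one of the largest falls, a gene kept its mark while another lost most of it. H2aj-Art4 was 48.0%, 51.9% and 51.9% covered in Th2 lists, 48.0%, 45.6% and 46.3% in Th1 lists and 94.9%, 94.3% and 94.8% in naive lists. Naive lists were all above the others. The differences from naive were -44.0 points for Th2 and -48.0 points for Th1 (standard error 4.29 for both, limma adjusted p = 2.8e-05 and 1.4e-05). Without the naive peaks H2aj-Art4 would not hold 3 whole genes, so the rule itself favoured high naive cover. Its histone gene H2aj was at 100% in all 9 lists, whereas Art4, an ADP-ribosyltransferase family gene, was at 6.56%, 25% and 19.8% in Th2, 16.3%, 13.1% and 0% in Th1 and 100%, 88.8% and 87.6% in naive lists. Art4 thus fell in both helper types, by 75 points in Th2 and by 82.3 points in Th1 cells (limma adjusted p = 3.5e-05 and 1.9e-05). Clk1-Nif3l1, Git1-Abhd15, Zmynd19-Mrpl41, Gpsm3-Egfl8, Slc16a5-Nt5c and Acot8-Zswim1 fell as well, by 35.6 to 46.4 points in Th2 and by 28.9 to 54.8 points in Th1 cells. In each of these 6 domains all naive lists lay above all Th2 and Th1 lists.

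In both comparisons with naive cells the same 3 domains were called higher, and Muc1-Krtcap2 was called as well in Th1 cells. Cish-6430571L13Rik, with Cish, a cytokine-induced inhibitor of receptor signalling, was 98.1%, 99.4% and 99.3% covered in Th2 lists, 92.4%, 92.9% and 90.1% in Th1 lists and 59.7%, 59.1% and 59.7% in naive lists. Naive lists were all below the others, and it rose by 39.4 points in Th2 and 32.3 points in Th1 cells (limma adjusted p = 1e-06 and 4e-06). Without the Th2 peaks this region would not hold 3 whole genes, so the rule itself favoured high Th2 cover. Tbc1d10a-Osm, with Osm, the cytokine oncostatin M, rose by 35.5 points in Th2 and 37.8 points in Th1 cells. Jak3-B3gnt3, with Jak3, the kinase of receptors that use the common gamma chain, rose by 34.7 points in Th2 and 29.5 points in Th1 cells. The genes Cish and Osm themselves were at 100% in all 9 lists, so the domains differed around them.

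Muc1-Krtcap2 was the domain that differed most between Th2 and Th1 cells. It was 35.3%, 40.8% and 40.3% covered in Th2 lists, 93.5%, 98.5% and 90.9% in Th1 lists and 30.6%, 23.6% and 30.6% in naive lists. All Th1 lists were above all others, with Th2 minus Th1 at -55.5 points (standard error 6.02, limma adjusted p = 0.00025). Without the Th1 peaks this region would not hold 3 whole genes. The rule itself thus favoured high Th1 cover here, and the p-value is no support apart from it. Sema4b-Gdpgp1, with Sema4b, a semaphorin, was 95.6%, 96.3% and 98.0% covered in Th2, 62.7%, 55.9% and 54.5% in Th1 and 90.3%, 91.6% and 90.1% in naive lists. It was higher in Th2 than in Th1 cells by 39.0 points (limma adjusted p = 3.2e-05), and the Th1 lists were the low ones.

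H2-Oa-H2-DMb2, a domain with class II antigen presentation genes, was 83.8%, 81.7% and 90.4% covered in Th2, 60.9%, 58.1% and 58.1% in Th1 and 88.6%, 78.1% and 78.6% in naive lists. Th1 lists were lowest, and Th2 minus Th1 was 26.2 points (limma adjusted p = 0.0016). This call was lost without a variance trend, with libraries centred (19.5 points) and without Th2 replicate 3 (23.7 points). Kifc5b-Cuta was 25.6 points lower in Th2 than in Th1 cells (limma adjusted p = 0.0021), with 58.5%, 64.7% and 61.9% covered in Th2 lists against 93.5%, 87.8% and 80.6% in Th1 lists. It also lost its call in 5 settings, including -22.5 points without Th1 replicate 1 and -24.0 points without Th2 replicate 1.

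**Figure D3:**
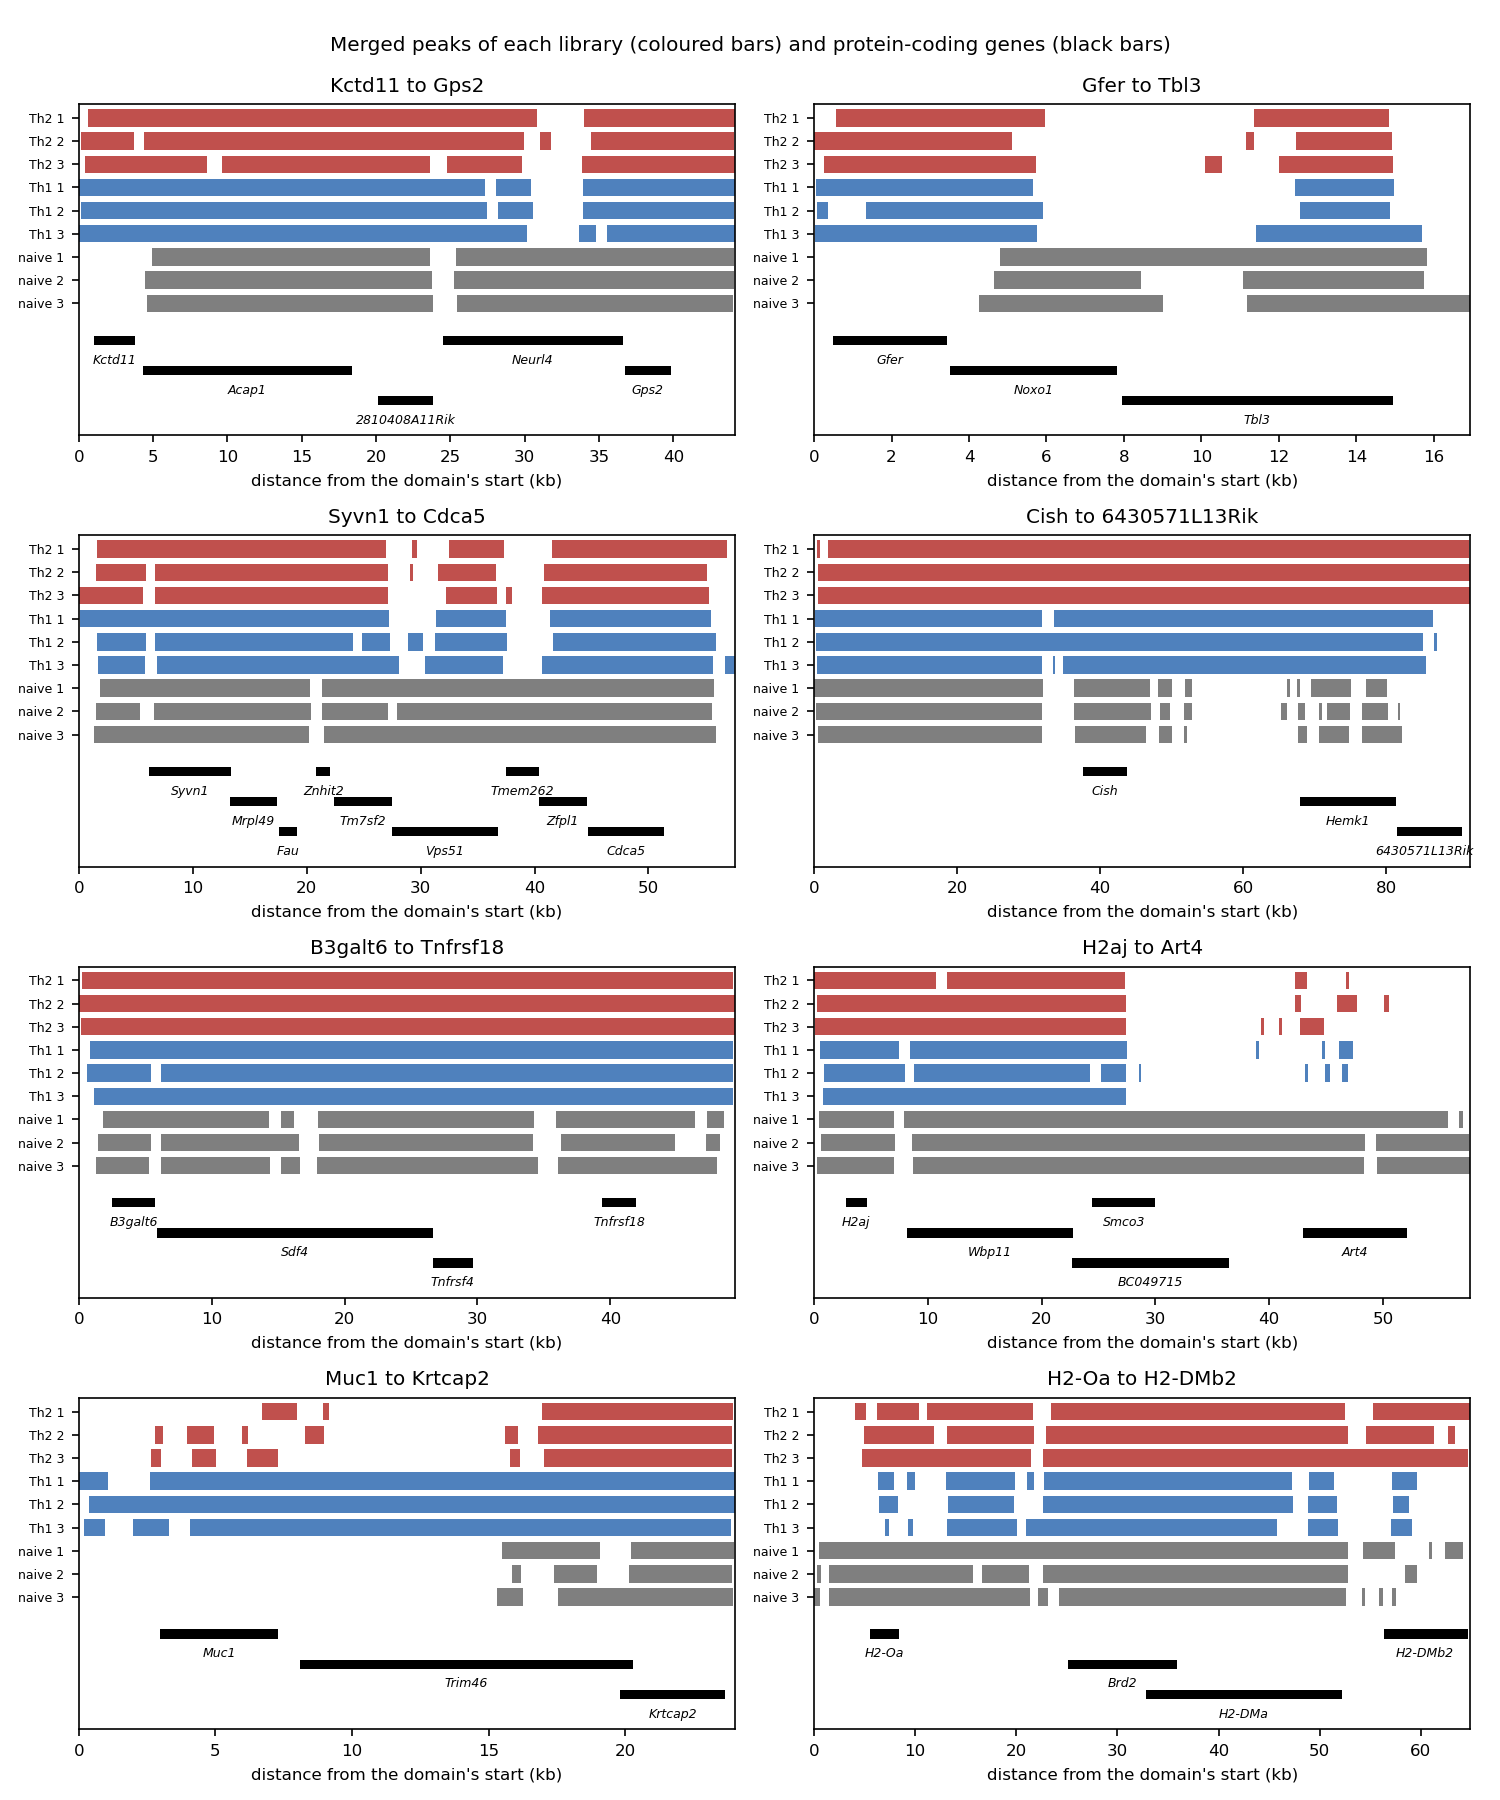
Merged peaks of each Th2, Th1 and naive library (coloured bars, 1 row per library) and genes (black bars) against distance from the start of the domain in kb, for 8 domains chosen after their values were seen. The naive libraries have more gaps than the Th2 and Th1 libraries over Cish-6430571L13Rik and B3galt6-Tnfrsf18, and they leave Kctd11 and Gfer bare.

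Of the 460 member genes, 144 were at 100% in all 9 lists and could not be tested, which left 316. Between Th2 and naive cells 11 genes rose and 58 fell, beside 4.26% and 15.4% of all 11600 genes tested. Between Th1 and naive cells 10 rose and 64 fell, beside 4.38% and 16.3%. Between Th2 and Th1 cells 6 were higher and 2 lower in Th2, beside 2.08% and 1.56%. The median difference of the tested members was -6.01 points for Th2 and -5.76 points for Th1 relative to naive, beside -5.50 and -5.54 points over all genes and -2.39 and -1.96 points over other genes that lie whole within 1 union region. With libraries centred to the same mean the member medians were 1.69 and 2.48 points, beside 2.19 and 2.70 points over all genes. With matched covered length they were -5.53 and -5.62 points, beside -1.92 and -1.32 points. With centring the calls were 17 higher and 42 lower for Th2, beside 6.37% and 9.64% of all genes tested. For Th1 they were 17 higher and 45 lower, beside 6.34% and 10.1%.

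A few genes were bare in naive cells and covered in helper cells. Kctd11, an adaptor of a ubiquitin ligase known from human cells, was at 100%, 96.9% and 100% in Th2 lists, 100% in each Th1 list and 0% in each naive list. The groups did not overlap, and it rose by 99.0 points in Th2 and 100 points in Th1 cells (limma adjusted p = 2.1e-09 and 2e-09). With only peaks of a −log10 q of at least 5 the Th2 difference was 66.7 points and no longer passed. In the same domain Gps2, a corepressor subunit, was at 100% in all 9 lists. Neurl4 fell in Th1 cells by 27.7 points, so that genes of Kctd11-Gps2 changed in opposite directions.

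Gfer, a sulfhydryl oxidase of mitochondria, was at 97.4%, 100% and 100% in Th2, 100%, 70.6% and 100% in Th1 and 0% in all naive lists. It rose by 99.1 points in Th2 and 90.2 points in Th1 cells (limma adjusted p = 1.8e-05 and 2.7e-05), with no overlap between helper and naive lists. Tbl3, a nucleolar protein gene of the same domain, fell by 31.9 points in Th2 and by 37.2 points in Th1 cells. Noxo1 lies between Gfer and Tbl3, so these are not adjacent. Znhit2 in Syvn1-Cdca5 was at 100% in each Th2 and Th1 list and at 61.3%, 58.0% and 47.7% in naive lists, and rose by 44.3 points in both comparisons. In the same domain Tmem262, at 0%, 0% and 17.6% in Th2, 0.995%, 2.33% and 0% in Th1 and 100% in all naive lists, fell by 94.1 points in Th2 and by 98.9 points in Th1 cells. Tmem262 overlaps another gene, so its value cannot be assigned to it alone. Nfkbie-Hsp90ab1 also held opposite changes between Th2 and naive cells, with Nfkbie, an inhibitor of NF-kappaB, falling by 28.7 points and Slc35b2 rising by 26.0 points.

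Other genes that rose were Spaca4 (88.6 points in Th2 and 86.0 points in Th1), 6430571L13Rik (96.6 and 44.7 points), Hemk1 (34.5 points in both) and Il4i1, a secreted amino acid oxidase (38.8 and 50.3 points). Spaca4 overlaps Fam83e, which rose by 43.2 points in Th1 cells, and lost its call with only the stronger peaks in both comparisons (21.9 and 66.7 points), and with matched covered length in Th2 (55.3 points). Among genes that fell, Egfl8 was at 0% in all 6 helper lists and at 94.5%, 100% and 79.3% in naive lists. The groups did not overlap and it fell by 91.3 points in both comparisons (limma adjusted p = 2.7e-06 for Th2 and 2.4e-06 for Th1). This gene is a member only through naive peaks. Egfl8 lost its call with only the stronger peaks and with matched covered length, at -33.3 points in each case.

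Further falls relative to naive cells were seen in Slc16a5, of the monocarboxylate transporter family (61.6 points in Th2 and 89.8 in Th1), and Pspn, a neurotrophic factor (66.3 and 88.2 points). Gdpd3, a phosphodiesterase family gene, fell by 69.8 points in Th2 and by 79.9 points in Th1 cells, and Ppil3, of the cyclophilin family, by 74.9 and 79 points. Camta2, a transcription activator that binds calmodulin, fell by 49.3 and 55.5 points, and Tbx6, a T-box transcription factor, by 71.0 and 54.3 points. Lrwd1, of the origin recognition complex, fell by 65.9 and 63.0 points, and Ager, a receptor for glycation products, by 41.4 and 62.6 points. Also falling in both comparisons were Abhd15, Fitm1, Ctrl, Tmem265, BC049715, Dcdc2b, Gm128 and Grifin, the last a galectin-related lens gene. Ctrl and Tmem265 lost their calls in both comparisons with only the stronger peaks, at -48.1 and -33.3 points, and with matched covered length.

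Between Th2 and Th1 cells, Trim46 and Muc1 were the genes that were lower in Th2. Muc1, which encodes a membrane mucin, was at 13.6%, 30.4% and 47.8% in Th2, 100%, 100% and 81.8% in Th1 and 0% in all naive lists, a Th2 minus Th1 difference of -63.4 points (limma adjusted p = 0.0025). Trim46 was at 29.1%, 38.6% and 29.9% in Th2 and 100% in each Th1 list, a difference of -67.5 points (limma adjusted p = 4.5e-05), and it overlaps Krtcap2. The Th1 lists stood above both other groups for each gene. Both genes lie whole in a union region only through Th1 peaks, so the rule itself favoured high Th1 cover.

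H2-DMb2, a chain of the complex that loads peptides on class II molecules, was at 100%, 69.1% and 99.6% in Th2, 29.7%, 19.9% and 24.8% in Th1 and 38.6%, 14.0% and 4.84% in naive lists. All Th2 lists were above the rest, with 64.8 points between Th2 and Th1 (limma adjusted p = 0.0065). This gene lies whole in the domain only through Th2 peaks. H2-Oa, which modulates that complex, was at 76.3%, 100% and 100% in Th2, 56.7%, 63.4% and 14.4% in Th1 and 100% in each naive list. Its difference of 47.3 points (limma adjusted p = 0.046) lost its call when any 1 of 6 libraries was left out (43.3 to 53.2 points) and under 5 other settings. Between these 2 genes, Brd2, a chromatin reader, was at 100% in all 9 lists. Sema4b was 45.3 points higher in Th2 than in Th1 cells, 6430571L13Rik 52.0 points, Cptp 31.8 points and Slc16a5 28.2 points. Cptp lost its call when any 1 of 5 libraries was left out (24.0 to 32.9 points), and Slc16a5 without Th2 replicate 2 (23.4 points) and with only the stronger peaks (6.40 points).

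Neighbours were classed in each list as shared where 1 peak ran over both genes and both were at least 50% covered, split where both were covered by different peaks, and single where only 1 was covered. A cell type took the state that at least 2 of its 3 lists showed. Of 334 pairs of adjacent member genes, 181 were shared in Th2 cells, 182 in Th1 cells and 261 in naive cells. Split pairs numbered 110 in Th2, 105 in Th1 and 62 in naive cells, and single pairs 38, 42 and 7. The split count in naive cells was 41 without naive replicate 2, where both remaining lists had to show the state. Pairs with overlapping genes (86 of 334) can be under 1 peak for that reason alone.

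All 3 cell types shared 150 of the pairs, and 61 were shared in naive cells but split in both Th2 and Th1 cells. A further 23 were shared in naive cells with only 1 gene marked in both helper types, and 31 were split throughout. The reverse, shared in both helper types and split in naive cells, was seen in 12 pairs. Among 358 other pairs that lie whole within 1 union region, 52.8% were shared in Th2, 49.4% in Th1 and 69.6% in naive cells, beside 54.2%, 54.5% and 78.1% of member pairs.

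The percent of a pair's span under its longest single peak was compared with limma over 8844 pairs, of which 289 were member pairs. Between Th2 and naive cells 15 member pairs were called higher and 83 lower, beside 1.61% and 7.97% of all pairs tested. Between Th1 and naive cells 16 were called higher and 78 lower, beside 1.59% and 8.12%. Between Th2 and Th1 cells 1 was called higher and 7 lower, beside 0.464% and 0.475%. The closest background is the other pairs within 1 union region, of which 8.72% were called higher and 28.7% lower between Th2 and naive cells. Member pairs had 5.19% and 28.7% in that comparison, so the shares of lower calls were alike. For Th1 minus naive these other pairs had 7.17% higher and 26.5% lower, beside 5.54% and 27.0% of member pairs. For Th2 minus Th1 they had 3.12% higher and 0.935% lower, beside 0.346% and 2.42% of member pairs, a balance in the other direction. With peaks up to 1 kb apart joined, 3 member pairs were higher and 4 lower for Th2 minus Th1, beside 0.602% and 0.613% of all pairs.

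The genes of the T cell receptor complex show a split of this kind, in Cd3g-Cd3e, a domain picked because its genes are T cell markers. Cd3g and Cd3d, whose starts face away from each other, were shared in all 3 cell types. Cd3d and Cd3e, whose ends face each other, were split in Th2 and Th1 cells and shared in naive cells. The longest peak covered 51.9%, 51.4% and 54.4% of the span of Cd3d and Cd3e in Th2, 54.7%, 41.0% and 52.5% in Th1 and 81.3%, 100% and 100% in naive lists. All naive lists were above the rest, while Cd3d and Cd3e were each at 100% in every Th2 and Th1 list.

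Among called pairs, Smco3 and Art4 had 10.3%, 10.6% and 10.5% of their span under 1 peak in Th2, 10.8%, 8.19% and 10.8% in Th1 and 100%, 86.5% and 86.1% in naive lists. The groups were far apart, and the pair fell by 80.4 points in Th2 and by 80.9 points in Th1 cells (limma adjusted p = 1.5e-06 and 1.4e-06). Spag7 and Camta2, 46 bp apart, fell by 78.4 points in Th2 and by 80.0 points in Th1 cells. Zswim3 and Zswim1 fell by 79.5 and 74.0 points, and Mapk3, the kinase ERK1, and Gdpd3 by 73.2 and 77.7 points. Dcdc2b and Iqcc fell by 72.8 points in Th2 and by 72.4 points in Th1 cells, and Higd2a and Cltb, a clathrin light chain gene, by 55.0 and 73.2 points.

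Other pairs were joined in helper cells. Cish and Hemk1, 24297 bp apart, lay wholly under 1 peak in each Th2 and Th1 list, against 21.6%, 21.9% and 20.3% of the span in naive lists. The pair rose by 78.7 points in both comparisons (limma adjusted p = 1.4e-08 in each). Castor1, an arginine sensor of the mTORC1 pathway, and Osm rose by 62.7 points in both. Tnfrsf4 and Tnfrsf18, the costimulatory receptors OX40 and GITR, lay 9708 bp apart under 1 peak in all Th2 and Th1 lists, against 50%, 49.1% and 51.7% of the span in naive lists. Both receptor genes were at 100% in all 9 lists. What rose, by 49.8 points in both comparisons, was the share of the span under 1 peak. Naive peaks covered most of the gap between the genes, with a break inside it in each naive list. In the same domain the pair of B3galt6 and Sdf4 rose by 57.3 points in Th2 and 52.2 points in Th1 cells. The pair of Sdf4 and Tnfrsf4, which overlap, rose by 50.9 and 50.5 points. For these pairs every naive list had a break inside the body of Sdf4, which no Th2 or Th1 list had. Naive lists 2 and 3 also had a break across the gap between B3galt6 and Sdf4, as did Th1 list 2.

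Between Th2 and Th1 cells, 7 pairs were less joined in Th2. Muc1 and Trim46 differed by -78.5 points and Trim46 and Krtcap2 by -56.8 points. Both pairs lie in the domain that exists only through Th1 peaks. Cnn2, a calponin gene, and Abca7, a lipid transporter gene, had 25.1%, 26.1% and 35.1% of their span under 1 peak in Th2, 100%, 80.5% and 100% in Th1 and 100% in each naive list. The Th2 lists were the low ones, with -64.8 points between Th2 and Th1 (limma adjusted p = 0.00037), but -22.9 points and no call when peaks up to 1 kb apart were joined. Daxx and Zbtb22 had 62.2%, 61.1% and 61.9% in Th2 and 100% in every Th1 and naive list, a difference of -38.3 points (limma adjusted p = 8.2e-07).

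Rab5if and Sla2, an adaptor gene that dampens antigen receptor signalling, differed by -40.6 points, Grifin and Lfng, a Notch glycosyltransferase gene, by -49.4 points, and Il17c and Cyba, a subunit of the phagocyte oxidase, by -27.1 points. These 3 pairs lost their calls when peaks up to 1 kb apart were joined, at -24.2, -42.2 and -20.9 points. Sema4b and Cib1 was the pair that was more joined in Th2 than in Th1 cells, by 37.5 points.

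Sharing went with the orientation of the neighbours. Of the 334 pairs, 264 had a known strand for both genes. The 70 divergent pairs, a median of 19.5 bp apart, were shared in 78.6% of cases in Th2, 77.1% in Th1 and 88.6% in naive cells. The 90 convergent pairs, 173.5 bp apart, were shared in 43.3%, 44.4% and 73.3%, and the 104 pairs on the same strand, 1019.5 bp apart, in 54.8%, 53.8% and 76.9%, of Th2, Th1 and naive cells. Convergent pairs were thus less often under 1 peak than divergent pairs in every one of the 9 lists, with the largest gap in the helper lists. The same order was seen among the other pairs within 1 union region, where 70.8%, 60.4% and 83.3% of divergent pairs and 41.5%, 42.7% and 68.3% of convergent pairs were shared in Th2, Th1 and naive cells. No test was run over these shares.

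**Figure D4:**
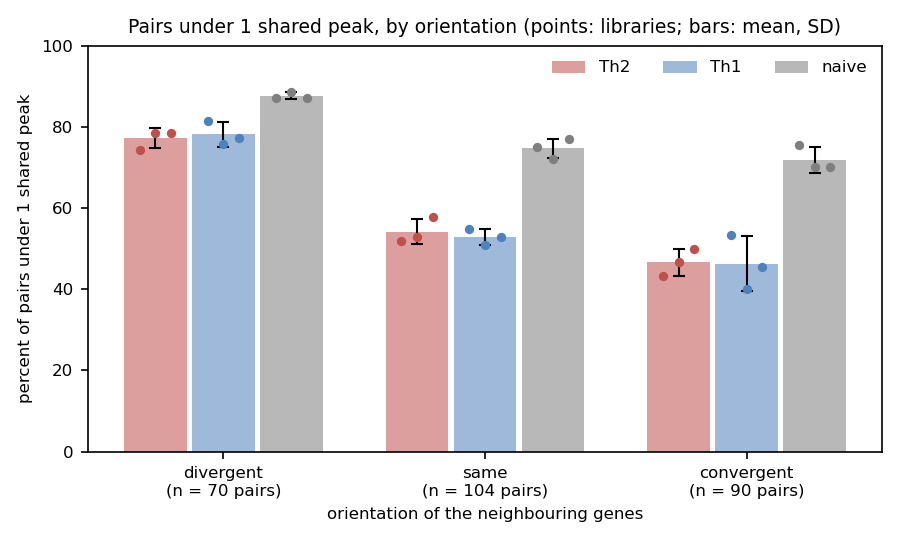
Percent of neighbour pairs under 1 shared peak (y axis) by orientation (x axis) in Th2, Th1 and naive cells, as the mean of 3 libraries (bars, with SD) and each library (points). Divergent pairs lie at 74.3 to 81.4% in the Th2 and Th1 libraries, above convergent pairs at 40 to 53.3%.

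The mark was near complete 1 kb downstream of gene starts in all cell types and less complete at gene starts and ends, most so in helper cells. Over the 397 member genes with a start in the RefSeq table, 95.5% ± 0.873 were covered 1 kb downstream of the start in Th2, 94.6% ± 0.634 in Th1 and 96.5% ± 0.252 in naive lists (mean and SD, n = 3 each). At the gene end the shares were 76.0% ± 1.82 in Th2, 75.3% ± 3.22 in Th1 and 87.4% ± 2.24 in naive lists. At the start itself they were 79.8% ± 3.5 in Th2, 78.3% ± 3.53 in Th1 and 88.5% ± 1.89 in naive lists. The cell types thus differed by less 1 kb into the body than at the start or the end. The rule kept genes whose whole body lies under the pooled peaks, so high cover inside the body is in part fixed. Values near 95% also leave little room for the cell types to differ, and no other genes were set beside the members.

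**Figure D5:**
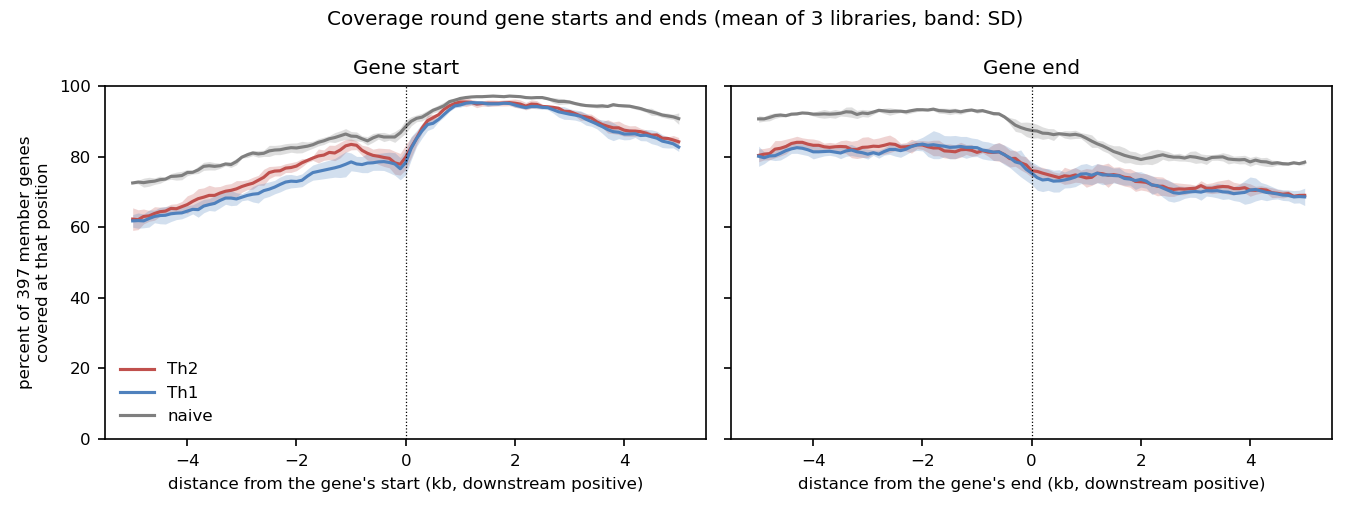
Percent of 397 member genes covered (y axis) at each distance from the gene start (left) and gene end (right), as the mean of 3 Th2, Th1 and naive libraries with SD as a band. The curves meet near 95% at 1 kb past the start and part towards the end, where naive libraries stand at 87.4%.

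Breaks between peaks were placed in 79 domains whose genes all had a known strand, where the lists of a group held 622 breaks in Th2, 609 in Th1 and 339 in naive cells. The middle of a break lay inside a gene body in 37.9% of Th2, 39.4% of Th1 and 32.4% of naive breaks, beside 56.9% of the bases. It lay outside the whole member genes in 40.4%, 39.2% and 46.3%, beside 29.8% of the bases. Genes that run past the edge of a domain were not counted, so such a break need not lie between genes. The middle lay within 500 bp of a gene start in 12.9%, 11.5% and 12.4%, beside 6.90% of the bases. Within 500 bp of a gene end it lay in 8.84%, 9.85% and 8.85%, beside 6.39%. The median break was 1156 to 1245 bp wide in Th2, 1219 to 1292 bp in Th1 and 1014 to 1116 bp in naive lists.

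Of the gene lists for Th1, Th2 and naive cells, no gene lay in a compact domain. From the list for activation and metabolism 5 did, namely Tnfrsf4 and Tnfrsf18, and the glycolysis genes Gapdh, Aldoa and Pgam1. Gapdh was at 100% in all 9 lists and Aldoa at 97.7% or more in each. Pgam1 was at 86.0%, 88.8% and 86.5% in Th2, 99.91%, 88.6% and 100% in Th1 and 84.9%, 82.7% and 83.6% in naive lists. Its differences from naive, 3.35 points for Th2 and 12.4 points for Th1, were below the 25 points needed for a call.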

How the data were processed

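H3K79me2 was measured in 9 libraries, and 9 input libraries carried no file used here. MACS2, Bowtie2, SAMtools, Picard and the build mm10 are named in the submitters' processing notes; how inputs entered peak calling, settings and versions are not given in the sources used here. The authors deposited 1 broad peak list per library. Each deposited peak has a score, a −log10 p, a −log10 q and a fold enrichment, the ratio over local background. The deposited score equals 10 times the −log10 q, truncated, in 99.99% of peaks. They served to rank or filter peaks of their own list and nothing else. Read depth is unknown, so no counting interval was set.

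Peaks were merged within each list, and coverage in percent was computed for genes, union regions and pairs of neighbours. Features that did not vary over the 9 libraries were not tested. limma 3.58.1 (R 4.3.3; lmFit and eBayes with a variance trend) fitted all 9 libraries in 1 model with 6 residual degrees of freedom, tables were made with Python 3.11.15, and the fit was tested on simulated data. Members named with values were the 8 domains, up to 25 genes and 8 pairs per comparison with the largest called differences, the domains with opposite changes, the extremes of width and gene number, and those with listed genes; a few others, such as the Cd3 genes, were picked after their values were seen. The members and lists were chosen with earlier results of these data known. Alternatives covered peak strength, matched covered length, joining of peaks, centring, filters, thresholds, a replicate block and leaving out each library. A few members that this rule names are not reported here.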

Additional observations from a re-analysis of the deposited data

Results flagged for a closer look

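The effect of Th2 against naive cells differed from that of Th1 against naive cells in 4 domains, 8 genes and 8 neighbour pairs, by the test of Th2 minus Th1 itself (limma, adjusted over all features tested). Both effects share the naive libraries. Groups hold 3 libraries each, so single libraries were not tested as outliers.

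Among domains, the differences of Th2 minus Th1 were 26.2 points for H2-Oa-H2-DMb2, -25.6 points for Kifc5b-Cuta, -55.5 points for Muc1-Krtcap2 and 39.0 points for Sema4b-Gdpgp1. Kifc5b-Cuta was -10.3 points from naive in Th2 and 15.3 points in Th1, neither of which was called.

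Among genes, the differences were 52.0 points for 6430571L13Rik, 31.8 points for Cptp, 64.8 points for H2-DMb2, 47.3 points for H2-Oa, -63.4 points for Muc1, 45.3 points for Sema4b, 28.2 points for Slc16a5 and -67.5 points for Trim46. H2-DMb2 rose by 70.4 points in Th2 cells, against 5.64 points in Th1 cells, which was not called.

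Among pairs, the differences were -64.8 points for Cnn2|Abca7, -38.3 points for Daxx|Zbtb22, -49.4 points for Grifin|Lfng, -27.1 points for Il17c|Cyba, -78.5 points for Muc1|Trim46, -40.6 points for Rab5if|Sla2, 37.5 points for Sema4b|Cib1 and -56.8 points for Trim46|Krtcap2. Daxx|Zbtb22 and Rab5if|Sla2 were fully joined in every Th1 and naive list, so that the difference lay in the Th2 lists alone.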

How the results depend on the processing

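No named difference changed sign under any alternative run. Of 102 named differences, 20 lost their call under at least 1 alternative, most often with only peaks of a −log10 q of at least 5 (13) and with matched covered length (9). A feature that did not vary under an alternative was not tested there and was not counted as having lost its call. With a smallest difference of 10 points, calls for Th2 minus naive, Th1 minus naive and Th2 minus Th1 numbered 125, 122 and 19 genes (39.6%, 38.6% and 6.01% of those tested) and 68, 72 and 11 domains (54.4%, 57.6% and 8.8%), and 13 pairs for Th2 minus Th1. Over all features at that size, 8.5%, 8.53% and 5.78% of genes were higher and 36.2%, 37.2% and 4.44% lower, and 7.52%, 5.43% and 4.57% of regions were higher and 19.03%, 20.2% and 2.28% lower. For Th2 minus Th1, 1.42% of all pairs were higher and 1.55% lower at that size. With only the stronger peaks, 35 domains were called for Th2 minus naive and 38 for Th1 minus naive. Over all regions 7.19% were then higher and 28.6% lower for Th2, and 7.06% and 28.9% for Th1. With centring, 16 were called for Th1 minus naive, beside 8.10% of all regions higher and 12.4% lower. Without a variance trend, 2 were called for Th2 minus Th1, beside 2.73% and 1.34%. The number of domains was 83 with overlapping genes counted as 1 and 81 under 50 kb. Peaks per domain in Th2, Th1 and naive lists were 3.07, 3.06 and 1.89 with peaks up to 1 kb apart joined, and 2.12, 2.14 and 1.66 with only the stronger peaks. Split pairs were 65 in Th2 and 34 in naive cells where all 3 libraries had to show the state, and 67 in Th2 and 61 in Th1 cells with genes marked from 75%. Leaving out 1 library at a time gave 112 to 126 domains, 21 to 26, 24 to 31 and 3 to 4 domains called, 62 to 73, 74 to 80 and 7 to 11 genes called, and 81 to 95, 84 to 96 and 8 to 11 pairs called, for Th2 minus naive, Th1 minus naive and Th2 minus Th1. Leaving out 1 library also gave 3.91 to 4.17, 3.78 to 4.10 and 2.34 to 2.49 peaks per domain, 159 to 167, 157 to 168 and 229 to 236 shared pairs, and 78 to 84, 77 to 89 and 41 to 45 split pairs, in Th2, Th1 and naive cells. With 2 libraries left in a group, both had to show the state. Libraries with the same replicate number did not deviate together (correlations of -0.0745 to 0.0193), so the numbers do not pair them. With the replicate block, 67, 74 and 7 genes, 21, 25 and 4 domains and 92, 92 and 8 pairs were called. Over all genes 4.23%, 4.35% and 1.94% were then higher and 15.3%, 16.2% and 1.45% lower. Over all regions 7.55%, 5.25% and 3.86% were higher and 16.4%, 17.9% and 1.95% lower. Over all pairs 1.56%, 1.58% and 0.418% were higher and 7.77%, 7.99% and 0.441% lower. Peak lists without read counts limit what a missing peak shows: a gap may be a stretch below the caller's threshold at that depth.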
